A study of Mus musculus with 6 samples.

Results

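The 5′ untranslated regions (5′ UTRs) of messenger RNA genes were examined as sites of TERT signal in mouse primary neurons. TERT is the catalytic protein of telomerase, and it was mapped by CUT&Tag, in which an antibody brings a transposase that tags the DNA beside the bound protein. Members were all regions on chromosomes 1 to 19 and X whose annotation, made on the mm10 build, starts with 5′ UTR. They numbered 784 of 41515 regions (1.89%). The neurons came from cortex and hippocampus of C57BL/6 embryos at day 15 to 18, and all samples were stained with the same anti-TERT antibody. Of the 6 samples, 3 were kept for 24 h with 2 µM BIBR1532, a small-molecule telomerase inhibitor, and 3 for 24 h with dimethyl sulfoxide as vehicle. Another label describes the vehicle samples as untreated.

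The libraries of each condition had been combined before regions were called, so each condition is 1 measurement with no replicate values, and the depth is unknown. A common list held regions with signal in both pools, a BIBR1532 list those higher in the BIBR1532 pool, and a vehicle list those higher in the vehicle pool. Regions of the last 2 lists are called condition-specific. Which of them belongs to which condition was read from the order of the conditions in the list names, so that direction is likely and not stated outright. The neuronal label could not be checked on these regions. None of the 12 neuron markers had a 5′ UTR region, and none of the 39 markers of astrocytes, microglia, the oligodendrocyte lineage, neural progenitors or vessel cells had one.

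The 5′ UTR is the stretch of a messenger RNA between its capped start and the start codon. Ribosomes scan it, and upstream open reading frames or structures within it can limit translation. In DNA its first part lies just downstream of the transcription start site, where the polymerase assembles and often pauses, so a protein found there can be bound to promoter chromatin. TERT is best known for extending telomeres and has also been described at gene promoters.

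The sequences below come from 5′ UTR regions that reach over the start site into the promoter. Each is a window of 30 bases lying wholly inside a deposited region, read 5′ to 3′ on the gene's own strand from RefSeq promoters of GRCm38.p6, the assembly of mm10. The windows of Inpp4a, Rtn3 and Ptpn1 lie wholly downstream of the start site. The genes were chosen after their sequences were seen. They are all 4 genes with a cAMP response element (CRE, TGACGTCA) in such a window, all 3 with an E-box (CACGTG), both with the NRF1 palindrome that stands in capitals in their lines, and 4 of the 16 with an ETS motif (CCGGAAG). NRF1 and ETS motifs are named for the transcription factors known to bind them. Motifs were searched on both strands, so an ETS motif can stand as CTTCCGG, and capitals mark the motif.

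Ppp2ca, common, CRE, chr11:52098787-52098816 (+): tgacgctggcgTGACGTCAccacgccgggc
Phf8, common, CRE, chrX:151520607-151520636 (+): gccccgccccaTGACGTCAcgcaagagccg
Trp53inp2, common, CRE, chr2:155381804-155381833 (+): gggcccctttgTGACGTCAcaatcagctgt
Dhrs7b, common, CRE, chr11:60830559-60830588 (+): cttaagcagacTGACGTCAtttagaccgca
Kdm6a, common, E-box, chrX:18162536-18162565 (+): gtcaacaaaggtCACGTGaggcgaggggct
Tnrc6b, common, E-box, chr15:80798534-80798563 (+): cctacccgaagtCACGTGatccgcctctat
Ube4b, common, E-box, chr4:149426608-149426637 (-): cccggcgagggtCACGTGacccctttcaaa
Inpp4a, BIBR1532, NRF1, chr1:37299851-37299880 (+): ggagtggggcGCGCATGCGCggtgaggggg
Rtn3, vehicle, NRF1, chr19:7483253-7483282 (-): ggctctttgtGCGCATGCGCgctcgcactc
Fis1, common, ETS, chr5:136953246-136953275 (+): ggaggcaccacCCGGAAGttcaggcttccc
Vti1b, common, ETS, chr12:79172442-79172471 (-): ctccgaggaccCCGGAAGcgcctgattccg
Phka2, BIBR1532, ETS, chrX:160502152-160502181 (+): ccaacgcgttcCTTCCGGgcgggactgcac
Ptpn1, vehicle, ETS, chr2:167932337-167932366 (+): gggggtgcgtaCTTCCGGctgccggcttga

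The CREs began 61 bp (Dhrs7b), 54 bp (Phf8), 41 bp (Trp53inp2) and 26 bp (Ppp2ca) upstream of the start site, all within common regions that span it. Ppp2ca encodes a catalytic subunit of protein phosphatase 2A and Phf8 a histone demethylase, while Trp53inp2 acts in autophagy. Of the E-box genes, Kdm6a encodes a histone demethylase, Tnrc6b a protein of microRNA silencing and Ube4b a ubiquitin ligase. Fis1 acts in mitochondrial fission, Vti1b encodes a SNARE, Phka2 a subunit of phosphorylase kinase and Ptpn1 a tyrosine phosphatase. The NRF1 motifs began 23 bp downstream of the start site in Inpp4a, which encodes a phosphoinositide phosphatase, and 19 bp downstream in Rtn3, a reticulon of the endoplasmic reticulum. No condition-specific region held a CRE or an E-box in such a window. Of the regions matched to a promoter sequence, 147 of 294 common, 49 of 148 BIBR1532 and 54 of 160 vehicle regions shared at least 30 bp with it, so the lists gave unequal room for a window. A match is a run of letters and not a measured binding site.

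The first comparison asked how often a 5′ UTR region was shared by both conditions. Of the 784 regions, 373 were common (47.6%, exact 95% interval 44.0 to 51.1%), against 16.4% of all regions. 5′ UTRs made up 5.48% of the common list (4.95 to 6.04%) and 1.18% of the condition-specific regions (1.07 to 1.30%), with an odds ratio of 4.83 (Wald 95% interval 4.19 to 5.57). Fisher's exact test (two-sided, adjusted over 8 annotation classes by Benjamini-Hochberg) gave an adjusted p of 2.29e-93. That test compares the deposited lists and not the conditions, because regions are not replicates, and all intervals cover counting error only.

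Set beside the most like classes, the common share of 5′ UTR regions of all widths was nearer to that of promoters than to that of exons. It was 47.6%, compared with 50.1% for the promoter-TSS class (odds ratio 0.905, 0.781 to 1.05, adjusted p = 0.201 by Fisher's exact test). At widths of at least 500 bp these shares were 63.2% and 76.5% (odds ratio 0.529, 0.316 to 0.886, adjusted p = 0.0188 by Fisher's exact test), so the 5′ UTR share was then the lower one. For exon regions the common share was 31.4%, and the odds ratio of 5′ UTR over exon was 1.98 (1.64 to 2.39, adjusted p = 1.59e-12 by Fisher's exact test over the 2 pairs). This second difference was not found among regions near the start site, though distances were not matched within the window used. Among regions centred 100 bp to 1 kb downstream of one, 48.6% of 5′ UTR and 47.6% of exon regions were common (odds ratio 1.04, 0.839 to 1.29, adjusted p = 0.765 by Fisher's exact test). In that range, 49.5% of 865 promoter-TSS regions were common as well.

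The common share was lower at greater distance from the start site. It was 56.5% of 310 regions centred 100 to 150 bp downstream, 52.5% of 177 at 150 to 200 bp, and 44.4% of 142 at 200 to 300 bp. It was 32.9% of 85 regions at 300 to 500 bp, 22.2% of 45 at 500 to 1000 bp, and 16.7% of the 24 beyond 1 kb (4 regions). Regions of all other classes at the same distances followed the same course, with 61.2%, 55.7%, 49.5%, 30.4% and 16.6% over the bins up to 1 kb. Exon regions alone had 61.2%, 62.4%, 47.1%, 35.7% and 16.7%, above the 5′ UTR share in all but the last of these bins. In each of these 5 bins the intervals of 5′ UTR and other regions overlapped, and the difference within a bin was not tested.

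**Figure D1:**
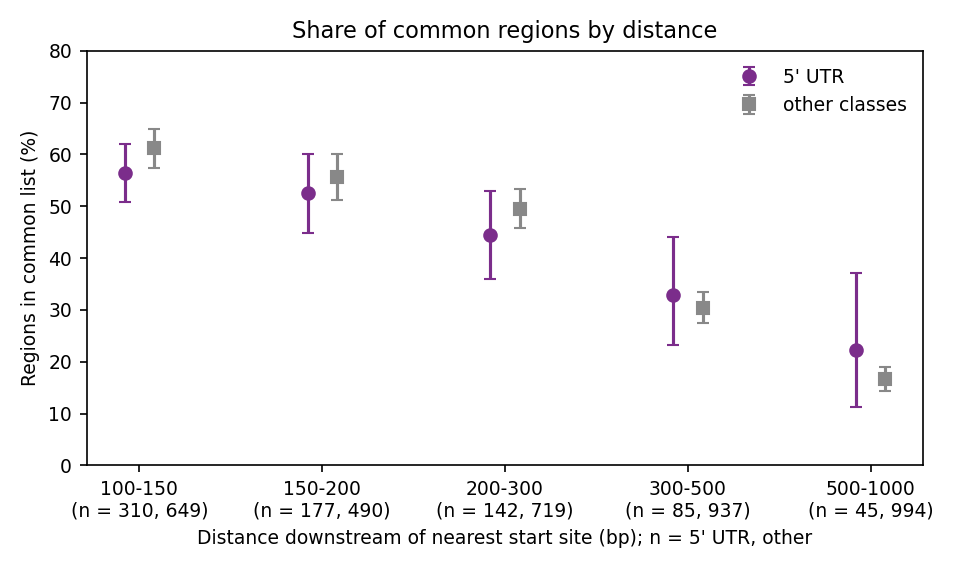
Share of regions in the common list (y axis, %) by distance of the region centre downstream of the nearest annotated start site (x axis, bp), for 5′ UTR regions and all other classes. Points are shares and bars exact 95% binomial intervals. The 5′ UTR share was 56.5% at 100 to 150 bp and 22.2% at 500 to 1000 bp, and the intervals of both series overlap in every bin.

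Between the conditions, 5′ UTRs were split almost evenly. The BIBR1532 list held 201 and the vehicle list 210, so BIBR1532 regions were 48.9% of the condition-specific 5′ UTR regions (44.0 to 53.9%), against 46.5% of all condition-specific regions. 5′ UTRs were 1.24% of the BIBR1532 list and 1.13% of the vehicle list (odds ratio 1.10, 0.906 to 1.34, adjusted p = 0.460 by Fisher's exact test over 8 classes). A shift of the odds by up to 1.34 times is therefore within counting error. Among regions of at least 500 bp the odds ratio turned to 0.733 (0.329 to 1.64), on 10 BIBR1532 and 15 vehicle regions.

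By position, common regions lay closest to the start site. The median distance of the region centre was 156 bp in the common list (quartiles 122 and 207), 185 bp in the BIBR1532 list (134 and 324) and 193.5 bp in the vehicle list (140.25 and 303.75). No centre lay between 1 kb upstream and 100 bp downstream of a nearest start site, so the near edge of these distances is set by the class. The annotation gives that interval to the promoter-TSS class, though only 87.7% of promoter-TSS regions were centred in it by their nearest start site. The end of the annotated 5′ UTR bounds them on the far side, and its length was not measured. Centres more than 1 kb downstream numbered 4 common, 8 BIBR1532 and 12 vehicle regions. A further BIBR1532 region was centred at -10102 bp, upstream of its nearest start site, which belongs to another gene.

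Most members were first-exon regions. Of the common regions 365 (97.9%) were in exon 1 of their transcript, as were 185 BIBR1532 (92.0%) and 200 vehicle regions (95.2%), while 34 of 784 were in a later exon. The farthest include Usp54, which encodes a ubiquitin-specific peptidase family member, with a vehicle region in exon 2 that lay 10531 bp from a start site. Grin2b, the NMDA receptor subunit GluN2B, had its BIBR1532 region in exon 3, 2021 bp from one. For 10 members the transcript that gave the annotation and the nearest start site carried different gene names, some of them older names of one gene, and the transcript's gene is used here.

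Common regions also reached farthest toward the start site. The start site itself was covered by 151 common regions (40.5%, 35.5 to 45.7%), 40 BIBR1532 regions (19.9%, 14.6 to 26.1%) and 49 vehicle regions (23.3%, 17.8 to 29.6%). The first 100 bp of the transcript were reached by 82.3%, 57.7% and 59.0% in the same order of lists. Median widths were 281 bp (common), 225 bp (BIBR1532) and 239.5 bp (vehicle), against 257, 247 and 244 bp over each whole list. Regions of at least 500 bp were 43 common (11.5%), 10 BIBR1532 (4.98%) and 15 vehicle regions (7.14%), against 15.4% of all regions.

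**Figure D2:**
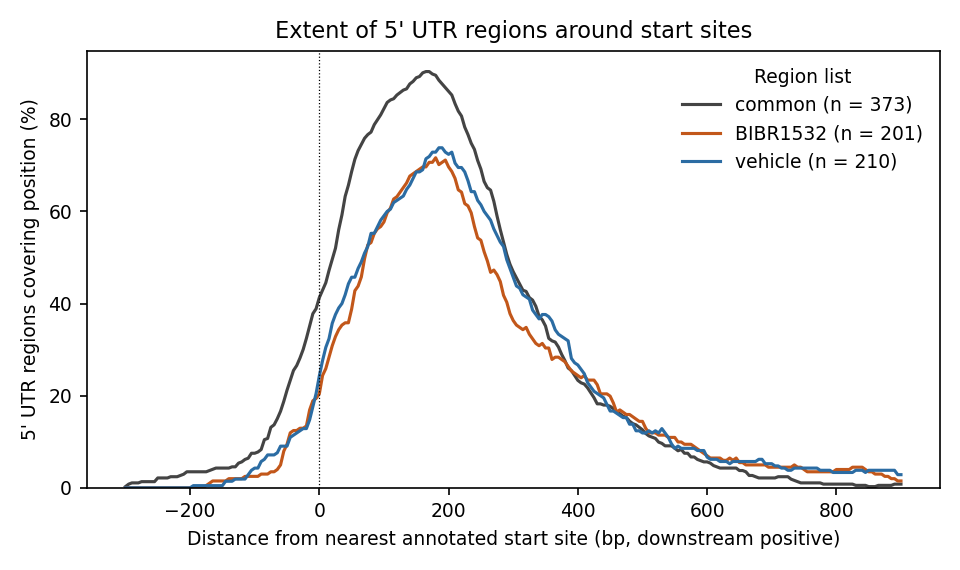
Share of 5′ UTR regions that cover each position (y axis, %) around the nearest annotated start site (x axis, bp, downstream positive), 1 line per list. Coverage peaked at 165 bp in the common list (90.3% of 373 regions), at 180 bp in the BIBR1532 list (71.6% of 201) and at 185 bp in the vehicle list (73.8% of 210).

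The authors' score ranks regions within a list. Its scale is not stated with the data (a log likelihood ratio, if it is the score that MACS2 gives such lists), so it is used for order only. Each condition-specific list has 1 score shared by a large part of its regions, 6.34 in the BIBR1532 list and 5.19 in the vehicle list. Only 16 BIBR1532 5′ UTR regions (7.96%, 4.62 to 12.6%) and 22 vehicle ones (10.5%, 6.68 to 15.4%) had it, against 46.8% and 50.2% of the whole lists. Below that score lay 66.2% of BIBR1532 and 51.0% of vehicle 5′ UTR regions, against 24.3% and 12.9% of the whole lists. A score of at least 3 was reached by 113 of 201 BIBR1532 and 133 of 210 vehicle 5′ UTR regions, against 84.5% and 90.4% of the whole lists. Promoter-TSS regions were close to this, with 13.0% and 11.7% at the shared score, whereas exon regions had 35.6% and 37.1%.

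**Figure D3:**
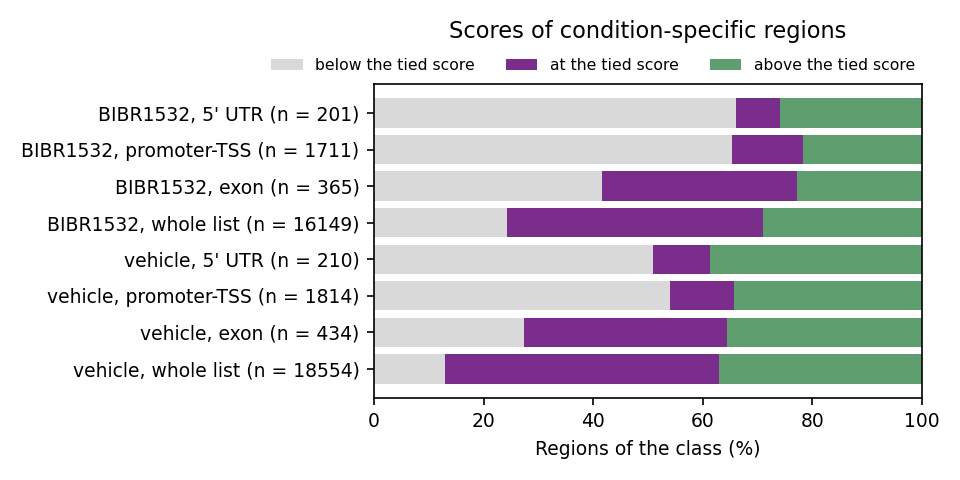
Share of regions (x axis, %) below, at and above the score most frequent in their list, for 5′ UTR, promoter-TSS and exon regions and the whole list, with BIBR1532 above vehicle. At the shared score lay 7.96% of BIBR1532 and 10.5% of vehicle 5′ UTR regions, against 46.8% and 50.2% of the whole lists.

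The BIBR1532 regions of highest score included synaptic genes. Shank2, a scaffold of excitatory synapses, led with 12.8 (chr7:144284564-144284861, exon 1), followed by Thbs1, the matrix protein thrombospondin-1, with 12.8 (chr2:118112510-118112757, exon 2). Sox1, a transcription factor of neural progenitors, scored 11.9 and had a second BIBR1532 region that scored 2.72. Vehicle signal was also called there, with a vehicle region 658 bp from the first Sox1 region and 122 bp from the second. Grin2b scored 11.7, Tspoap1, which links calcium channels to presynaptic release sites, 10.4, and the matrix protein gene Fras1 10.1. The Sox1, Thbs1 and Grin2b regions were centred 628, 757 and 2021 bp downstream of a start site. Of these 6 only the Tspoap1 region had a common region within 1 kb, 411 bp away. The widest were those of Lman2, a lectin of the secretory pathway (678 bp), Kcna6, a voltage-gated potassium channel (607 bp), and Zmiz1, a transcriptional coregulator (593 bp).

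The vehicle regions of highest score also named signalling and synaptic genes. Adcy5, an adenylyl cyclase, scored 12.3 (chr16:35155502-35155771, exon 1), and Dpp6, an auxiliary subunit of Kv4 potassium channels, 12.3 (chr5:27261738-27262420, exon 1). Sema4b, a transmembrane semaphorin, scored 11.8, Usp54 11.8, Zyg11b, a substrate receptor of a ubiquitin ligase, 10.6 and Homer1, a postsynaptic scaffold, 10.4. The Dpp6 region was also the widest of the vehicle list at 683 bp, before Ptger2, a prostaglandin E2 receptor (676 bp), and Dut, the enzyme that breaks down dUTP (653 bp). The Dut region touched or overlapped a common region, whereas the nearest common region to Dpp6 was 528691 bp away.

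Common regions were scored from 0.00191 to 0.814, where, if this is the ratio of MACS2, a higher score means a larger difference between the pools and not a stronger site. The highest were Nucks1, a nuclear substrate of casein kinase (0.814), Nus1, a subunit of a cis-prenyltransferase (0.773), and Gtf3c2, a subunit of the RNA polymerase III factor TFIIIC (0.771). Mrpl41, a mitochondrial ribosomal protein (0.706), Pfn1, the actin-binding protein profilin (0.694), and Rnf122, a RING finger protein (0.688), came next. Of these 6, the Nucks1 and Mrpl41 regions touched or overlapped a BIBR1532 region, and the Rnf122 region touched or overlapped a vehicle region. The widest common regions were those of Kpnb1, the nuclear import receptor importin beta (939 bp), Sesn2, a stress-induced sestrin (849 bp), and Nf2, the tumour suppressor merlin (822 bp). All 3 spanned the start site.

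The 784 regions fell in 755 genes, of which 26 had more than 1 region and 21 were in more than 1 list. No gene was in all 3. Common and BIBR1532 regions met in 10 genes, common and vehicle regions in another 10, and BIBR1532 and vehicle regions in 1, Sertad2, where they lay 88416 bp apart. Over all 21631 protein-coding genes, 370 (1.71%) had a common, 199 (0.92%) a BIBR1532 and 207 (0.957%) a vehicle region. At such shares, 1 gene in both condition-specific lists and none in all 3 is no result about the members, and the other overlaps were not tested. The gap between regions of different lists had a median of 49 bp, was at most 100 bp in 14 of the 21 genes, and was 0 bp in 6.

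In 18 of the 21 genes the regions were measured from a single start site, and most lay close together, with gaps of 201 bp or more in Zfp503, Gng8, Taok2 and Homer1 and an overlap in Nol4 and Rufy3. The condition-specific region was downstream of the common one in 13 of the 18, upstream in 3 and on both sides in 2. Because a region centred upstream of about 100 bp would have been classed as a promoter, the class itself limits the upstream count. Taken over neighbours of every class, 38 of the common 5′ UTR regions with a matched promoter had a BIBR1532 region upstream within 1 kb and 29 downstream, and for vehicle regions these counts were 37 and 24.

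Jund, which encodes an AP-1 transcription factor from a single exon, had 3 regions in a row. Its common region (chr8:70698446-70698753, score 0.0444) lay between an upstream vehicle region (score 1.31, 101 bp away) and a downstream one (score 4.82, 93 bp away). Homer1 had a common region over its start site (chr13:93303727-93304028) and vehicle regions starting 1020 bp and 1274 bp downstream of that site, with scores of 10.4 and 9.60. Slc35e4, a solute carrier, also had vehicle regions on both sides of its common region, 1 of them abutting it. In all 3 genes the further regions were from the vehicle list, which held 53.5% of all condition-specific regions. With 3 genes, that is no result about them.

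BIBR1532 regions lay beside common ones in another group of genes. Aars, the alanyl-tRNA synthetase, had a common region from 24 bp upstream to 270 bp downstream of the start site (chr8:111033819-111034112) and a BIBR1532 region that began at its next base and scored 3.09. Eif6, which keeps ribosomal subunits apart, had the BIBR1532 region on the start-site side (score 6.57) and the common one next to it. The regions of Sntg1, a syntrophin, abutted as well, with a BIBR1532 score of 4.47. In Irs1, the insulin receptor substrate, 49 bp lay between them, and in Zfp503, a zinc finger protein, 201 bp. A vehicle region also lay nearby in some of these genes, 5 bp from the Zfp503 common region and 483 bp from the Eif6 BIBR1532 region. For vehicle regions the gaps were 46 bp in Cln8, a protein of the endoplasmic reticulum, 249 bp in Gng8, a G-protein gamma subunit, and 341 bp in Taok2, a kinase. The Cln8 common region also touched or overlapped a BIBR1532 region. Sema4b differed: its common and vehicle 5′ UTR regions lay at separate start sites, 11373 bp apart, though another vehicle region lay 17 bp from the common one.

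**Figure D4:**
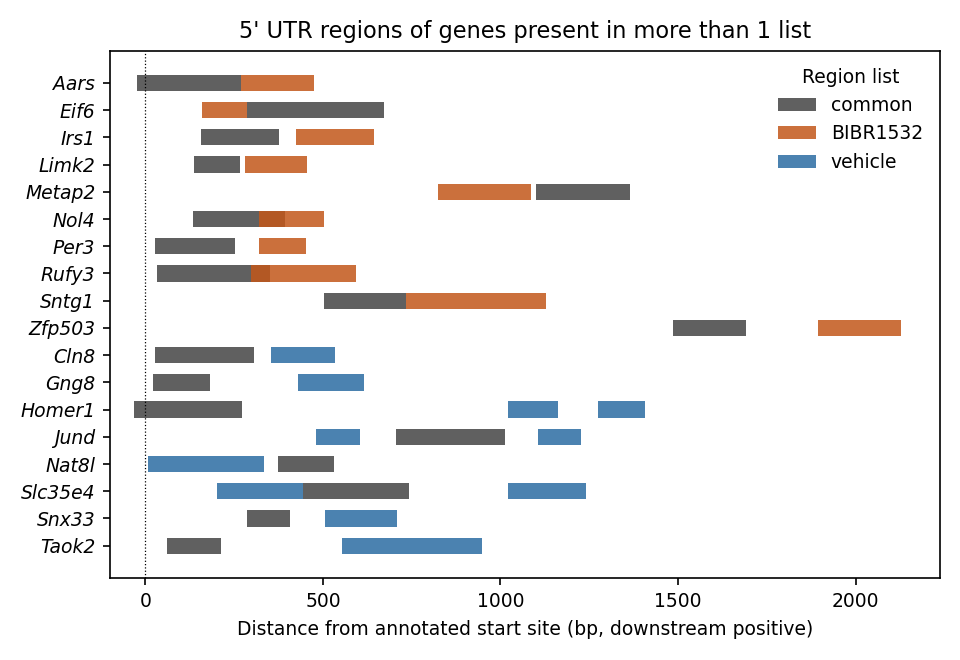
Position of the 5′ UTR regions (x axis, bp from the annotated start site, downstream positive) in the 18 genes with regions in more than 1 list at a single start site. Bars are whole regions, coloured by list, and genes with BIBR1532 regions stand above those with vehicle regions. Most condition-specific bars (13 of 18 genes) lie downstream of the common bar, and a few touch or overlap it.

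Condition-specific members often had a common region of any class nearby. Within 1 kb, 62 of 201 BIBR1532 members (30.8%, 24.5 to 37.7%) and 56 of 210 vehicle members (26.7%, 20.8 to 33.2%) did, and 23 and 18 of these had 0 bp between them. For promoter-TSS regions the shares were higher, 37.4% of BIBR1532 and 39.1% of vehicle regions, and for exon regions lower, 15.6% and 14.1%. Neighbours from the opposite condition were fewer. A vehicle region lay within 1 kb of 21 BIBR1532 members (10.4%), a BIBR1532 region within 1 kb of 27 vehicle members (12.9%), and none had 0 bp between them.

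A promoter-TSS region of the same gene was present for about equal shares of members in the 3 lists. It was found, in any list, for 136 common members (36.5%, 31.6 to 41.6%), 70 BIBR1532 members (34.8%, 28.3 to 41.8%) and 79 vehicle members (37.6%, 31.0 to 44.5%), and these intervals overlap. Over all 21631 protein-coding genes, 5338 had a promoter-TSS region, and the shares were not tested against that. The gene of the nearest start site was used for this match. The other members were in genes with no promoter-TSS region in any list.

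By function, members were spread thinly. Of 21631 protein-coding genes, 1.71% had a common, 0.92% a BIBR1532 and 0.957% a vehicle 5′ UTR region, and 3.49% had one in any list. The 19 functional lists were read against these shares by count alone, with no test. At the few members found per list, 1 gene moves a share by more than 1 percentage point.

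Genes of membrane traffic, translation and protein handling are described first, and the order is not a ranking of shares. Of 59 Rab GTPase and vesicle transport genes, 4 (6.78%) had a common region and none of the 59 a condition-specific one, close to the background of 0.92% and 0.957%. The 4 were Arf4, Rab11b and Rab14, small GTPases of membrane traffic, and Sec24a, a cargo adaptor of COPII vesicles. Genes of this kind outside the list did have condition-specific regions, such as Arf2 in the BIBR1532 list (score 8.45) and Rab17 in the vehicle list (score 5.19), named after their values were seen. Of 42 translation initiation factors, Eif2s2, Eif4b and Eif6 had a common region, Eif6 a BIBR1532 one and Eif4e2 a vehicle one. The chaperone genes Hspa5 and Hsph1 had common regions (2 of 34 genes of heat shock and protein folding stress). Of 63 ubiquitin and proteasome genes, Cul5, Ube2g1 and Ube2h had common regions, Psmd3 a BIBR1532 region, and Ube2a and Usp22 vehicle regions.

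Among genes of neuronal signalling, members were again few. Of 69 ion channel and transmitter receptor genes, none had a common 5′ UTR region, 2 had a BIBR1532 region and 3 a vehicle region. With a background of 1.71%, a count of 0 in 69 genes is no result about them, and genes outside the list, such as the muscarinic receptor gene Chrm3 and the chloride channel gene Clcn3, had common regions (named after their values were seen). Gria1, an AMPA receptor subunit, scored 7.42 and Grin2b 11.7 in the BIBR1532 list, and a vehicle region lay 265 bp from the Gria1 region. Grin1, the obligatory NMDA receptor subunit, scored 6.64 in the vehicle list, which also held Kcnk1, a potassium channel. NMDA receptor subunits were thus in both lists. A common promoter-TSS region was found for 7 of the 69 genes, against 3110 of 21631 protein-coding genes, so that count is no result about them.

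Of 50 neuronal transcription factor genes, none had a common 5′ UTR region, 3 had a BIBR1532 and 2 a vehicle one, while Dlx2, a homeobox gene outside the list and named after its values were seen, had a common region. Rest, a repressor of neuronal genes, stood at the shared score of 6.34, and Prox1, a homeobox factor, at 1.29 in the BIBR1532 list, which also held Zeb2. Sox4 scored 4.56 in the vehicle list. The shares of 6% and 4% rest on 5 genes in all.

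Among 30 immediate early genes, 3 had a common region (Dusp6, a phosphatase of ERK, Homer1 and Jund), 1 a BIBR1532 region (Btg1, an antiproliferative factor, score 8.66) and 3 a vehicle region (Homer1, Jund and the nuclear receptor Nr4a1). Of 60 chromatin regulators, Kdm6a, a histone demethylase, and Suz12, a subunit of the Polycomb complex PRC2, had common regions. Dnmt1, the maintenance DNA methyltransferase (score 7.002), and Kat5, an acetyltransferase (score 7.85), had vehicle regions. Kinases and phosphatases gave 3 common (Csnk1d, Map2k7 and Ppp2ca), 2 BIBR1532 (Csnk1e, with a score of 7.40, and Ppp3ca) and 1 vehicle region (Map2k2, score 1.40) in 58 genes.

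Of 37 Wnt and β-catenin pathway genes, the Frizzled receptor genes Fzd1 and Fzd7 had common regions and Fzd5 a BIBR1532 region (score 4.47), with no vehicle region. Splicing and RNA helicase genes gave 1 BIBR1532 (Hnrnpd, score 8.95) and 1 vehicle region (Dhx9, score 1.57) in 46. Mapre3, a microtubule end-binding protein, had a common and Stmn3, a stathmin, a vehicle region (score 7.35) in 56 cytoskeleton and motor genes, and Syt11, a synaptotagmin, a BIBR1532 region (score 1.47) in 49 synaptic vesicle genes.

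Genes known for control through their 5′ UTR gave 2 members, too few to set against the 3.49% of protein-coding genes. Ppp1r15b, whose translation is governed by upstream open reading frames, was 1 of 18 such genes, and Ftl1, the ferritin light chain with an iron-responsive element, 1 of 8, both in the common list. No member was found in 24 listed telomerase and telomere genes, 43 listed elongation factor and ribosomal protein genes, 25 amyloid, tau and neurotrophin genes or 13 polyamine and methionine genes. At 3.49%, these counts of 0 are no result about the genes. In the same order, 5, 13, 6 and 5 of them had a common promoter-TSS region, against 3110 of 21631 protein-coding genes, which was not tested. Rpl34, a ribosomal protein gene outside the list, had a vehicle region (score 5.37, named after its value was seen). Tert itself, Ctnnb1, Myc, Ccnd1, App, Mapt and Bdnf had no 5′ UTR region in any list.

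The promoters of member genes had a higher median GC content than protein-coding promoters, as did those of genes with promoter-TSS regions. RefSeq promoters, from 250 bp upstream to 50 bp downstream of a start site, were matched to 602 of the 784 regions (76.8%) by a start site within 2 bp, giving 583 distinct promoters. Their median GC content was 61.7% (common), 61.3% (BIBR1532) and 61.7% (vehicle), against 63.3%, 62.7% and 62% for genes with promoter-TSS regions and 56.7% for 21045 protein-coding promoters. GC boxes (GGGCGG) were present in 66.1%, 61.9% and 59.2% in the same order of lists, against 76.9%, 67.7% and 73.4% for promoter-TSS genes and 46.7% of protein-coding promoters. TATA boxes (TATAAA) were present in 7.19%, 5.44% and 9.55%, against 12.7%.

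Less frequent motifs had wider intervals. The CRE was in 14 of 292 common promoters (4.79%, 2.65 to 7.91%), 1 of 147 BIBR1532 promoters (0.680%, 0.0172 to 3.73%) and 3 of 157 vehicle promoters (1.91%, 0.396 to 5.48%), against 2.26% of protein-coding and 1.803% of all 32619 promoters. In genes with promoter-TSS regions the CRE did not have this order, with 3.43% of common, 3.97% of BIBR1532 and 4.23% of vehicle promoters. In the promoters of member genes the E-box was in 11.99% (common), 10.2% (BIBR1532) and 8.28% (vehicle), against 7.91% of protein-coding promoters. The ETS motif was in 14.7%, 12.9% and 10.8% of member promoters, against 11.7%, and the NRF1 motif in 3.08%, 4.76% and 3.82%, against 1.34%. Promoter-TSS genes had 10.6%, 10.0% and 11.4% for the E-box in the same order of lists. For ETS they had 18.8%, 16.5% and 18.6%, and for NRF1 2.24%, 2.25% and 2.23%. The intervals of the 3 lists overlapped for every one of these motifs. The CCAAT box (CCAAT), also searched, was in 46.2%, 38.8% and 39.5% of member promoters, against 38.5%. The YY1 motif (AAGATGGCG) was in 1.71%, 2.72% and 1.27% of member promoters, against 1.84%. The telomeric repeat, searched as 2 copies of TTAGGG in a row, was in none of the promoters of any list, where 0 of 292, 147 and 157 allow up to 1.26%, 2.48% and 2.32%, and in 4 of all 32619.

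**Figure D5:**
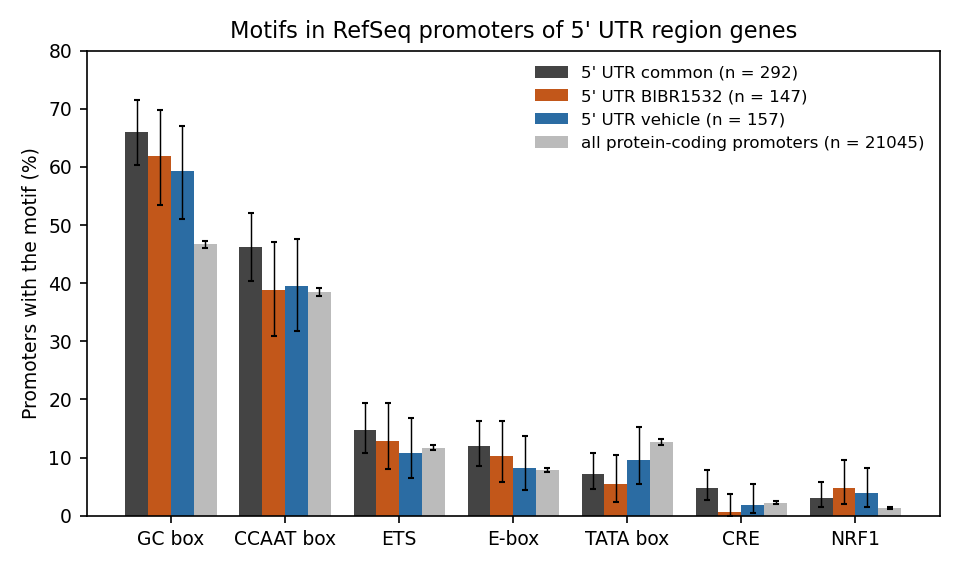
Share of promoters with each motif on either strand (y axis, %) for genes with common, BIBR1532 and vehicle 5′ UTR regions and for all protein-coding promoters (x axis, motifs). Bars are shares and lines exact 95% binomial intervals. GC boxes stood at 66.1%, 61.9% and 59.2%, against 46.7% of protein-coding promoters, and the intervals of the 3 lists overlap for each motif.

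Member genes had higher median lengths than protein-coding genes in general. Median gene lengths were 29.2 kb (common), 45.9 kb (BIBR1532) and 36.6 kb (vehicle), against 17.3 kb over all 21631 protein-coding genes. Genes with promoter-TSS regions had medians of 24.3, 27.0 and 23.2 kb in the same order of lists. These differences were not tested.

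Members were on every chromosome examined, from 19 on chromosome 18 to 64 on chromosome 11. As a share of all regions of a chromosome they ran from 1.37% on chromosome 18 to 2.47% on chromosome 8, with 2.24% on chromosome 11. Those counts and shares are a description, with no test.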

How the data were processed

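The 3 region lists, made by the authors from TERT CUT&Tag libraries of 3 BIBR1532 and 3 vehicle samples, were analysed. Per the submitters' processing notes, CASAVA 1.8, Bowtie2, Picard and MACS2 2.1.2 were used with build mm10. Per the file headers, regions were annotated with annotatePeaks.pl on mm10. No source used here states the scaling of the pools. The deposited score is the authors' own value, of unstated scale, and served only to rank and filter regions within a list. The BIBR1532 and vehicle lists were decoded from a 7-bit text encoding.

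Regions on chromosomes 1 to 19 and X were counted by annotation class. Lists were compared by Fisher's exact test (two-sided) with Benjamini-Hochberg adjustment and a threshold of 0.05. Shares have exact Clopper-Pearson intervals and odds ratios Wald intervals, at 95%. No test across replicates was possible. The class test was tested on simulated data with independently drawn regions, so neighbouring regions that depend on each other were not covered. Promoter sequences and gene names came from RefSeq tables of GRCm38.p6, and 822 of 823 genes in 25 gene lists matched. Members and lists were chosen with earlier results of these data known.

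The genes named were, per list, the 6 highest scores and 3 widest regions, all genes with 3 regions, up to 12 genes in several lists, up to 4 members of each gene list, and 7 genes fixed by name. Some items that this rule takes are left out here. Genes shown for their sequence, further members of the gene lists, genes outside them, Sertad2 and the second Sox1 region were chosen after their values were seen. Alternatives were a score of at least 3, leaving out the shared score, widths of at least 500 bp, merging within 1 kb, all contigs, exon 1 only, a distance window, and promoter regions within 2 kb. Tests ran in scipy 1.17.1 and tables in pandas 2.3.3 under Python 3.11.15, with numpy 2.4.6, and figures were drawn with matplotlib 3.10.9.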

Additional observations from a re-analysis of the deposited data

How the results depend on the processing

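Of 33 alternative values, 24 kept their direction and side of the threshold or moved by less than their interval. The odds ratio of 5′ UTR regions for common over condition-specific lists, 4.83, ranged from 2.71 without the regions at the shared score to 9.47 at widths of at least 500 bp. Against exon regions, the odds ratio of 1.98 moved to 1.04 (Fisher's exact test, adjusted p = 0.765) within 100 bp to 1 kb of the start site. Among regions of at least 500 bp, the odds ratio against promoter-TSS regions was 0.529 (Fisher's exact test, adjusted p = 0.0188) and that of BIBR1532 over vehicle reversed to 0.733. At that width the median distance was 197 bp for common and 213.5 bp for BIBR1532 regions, and 100% of the BIBR1532 and vehicle regions were in exon 1. At a score of at least 3 the BIBR1532 median distance was 246 bp and the exon 1 share 86.7%. The cause of these changes was not tested. No paired analysis was possible because the libraries of each condition had been combined and the lists carry no replicate values. For the same reason no replicate could be left out, and depth behind any region is unknown. The direction of BIBR1532 against vehicle rests on the order of names in the lists.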
